A study of Rattus norvegicus with 32 samples.

Results

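The genes described here encode the machinery that passes a signal from a receptor to cyclic AMP and cyclic GMP: G protein subunits, regulators of G protein signalling, adenylyl and guanylyl cyclases, and cyclic nucleotide phosphodiesterases. They were chosen by symbol, as every gene whose symbol starts with Gna, Gnb plus a digit, Gng plus a digit, Adcy, Pde plus a digit, Gucy or Rgs plus a digit. Earlier results of these data were known when this rule was set. Of the 5022 genes with a single symbol on the array, 65 met that rule. By product they were 11 G alpha, 4 G beta and 4 G gamma subunits, 10 RGS proteins, 7 adenylyl cyclases, 9 guanylyl cyclase subunits or isoforms and 17 phosphodiesterases. The letters also brought in 3 genes of another kind: Adcyap1, the neuropeptide PACAP, Adcyap1r1, its receptor, and Pde4dip, a scaffold that binds a phosphodiesterase.

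A receptor that binds its ligand loads the alpha subunit of a G protein with GTP, and the alpha and beta-gamma parts then act on effectors such as adenylyl cyclase, until RGS proteins speed the hydrolysis of GTP. Adenylyl cyclases make cyclic AMP, guanylyl cyclases make cyclic GMP in answer to nitric oxide or peptides, and phosphodiesterases break both down. In lung this chemistry sets bronchial and vascular tone, fluid clearance and surfactant release, and it restrains leukocytes.

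The study measured lung RNA of male Sprague-Dawley rats of 280 to 300 g. The bled rats carried 2 arterial catheters and a telemetry device, recovered for 7 to 10 days, and lost 40% of their estimated blood volume. Their lungs were taken at 7 times between 1 and 72 h afterwards. Sham rats were instrumented but not bled, and control rats were neither instrumented nor handled. No genetic change is labelled in any group. The blood was drawn manually through a catheter and no infusion is named in the labels, and the sham lungs form 1 group, not one matched to each time. Every lung was set against the same pool of RNA from organs of untreated rats on a 2-colour spotted array, and the pool itself held lung. The labels speak of 10 pooled organs and name 9.

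Of 32 arrays, 30 were used: 5 sham, 3 control, 3 at 1 h, 3 at 3 h, 5 at 6 h, 2 at 16 h and 3 each at 24, 48 and 72 h. Sham replicate 2 and 16 h replicate 3 were left out because 10 liver genes had a median log2 ratio of 3.40 and 3.23 there, against -1.43 to 0.36 on the 30 others. The arrays held values for 12151 to 12895 of 13056 spots, and paired spots of the 30 arrays correlated at 0.623 to 0.877. The lowest of these belonged to 3 h replicate 2. All values below are log2 ratios of lung to organ pool, less the array's median, averaged over the spots of a gene, so that 0 is the typical gene. Such a ratio compares 1 gene between lung and pool and ranks no gene against another by its amount of RNA. The labels do not number the animals, so the p-values measure the spread between these samples.

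The letters before the start of 5 genes that were lower in at least 1 test below are shown first, as examples of cyclases, an alpha subunit and a phosphodiesterase that the results turn on. The stretches come from RefSeq, build GRCr8, and end at the annotated start of the gene. They run 5′ to 3′ on the gene's strand, and capitals mark matches to the motifs named after them. The stretch before Adcy4 lies at chr15:33252071-33252276, that before Gucy2f at chrX:110605018-110605267 and that before Gnao1 at chr19:11198438-11198687, all on the minus strand. The stretch before Adcy5 lies at chr11:79123344-79123593 on the minus strand and that before Pde4b at chr5:122028706-122028955 on the plus strand.
Adcy4: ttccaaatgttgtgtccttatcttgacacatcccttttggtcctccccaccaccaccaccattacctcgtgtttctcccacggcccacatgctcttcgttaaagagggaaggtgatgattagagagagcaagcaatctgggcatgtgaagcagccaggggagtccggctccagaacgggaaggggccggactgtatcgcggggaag
Gucy2f: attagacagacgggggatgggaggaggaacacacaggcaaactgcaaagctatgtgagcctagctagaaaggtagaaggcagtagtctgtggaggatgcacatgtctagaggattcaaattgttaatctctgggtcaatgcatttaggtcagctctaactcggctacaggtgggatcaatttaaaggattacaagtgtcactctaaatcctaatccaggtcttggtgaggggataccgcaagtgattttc
Gnao1: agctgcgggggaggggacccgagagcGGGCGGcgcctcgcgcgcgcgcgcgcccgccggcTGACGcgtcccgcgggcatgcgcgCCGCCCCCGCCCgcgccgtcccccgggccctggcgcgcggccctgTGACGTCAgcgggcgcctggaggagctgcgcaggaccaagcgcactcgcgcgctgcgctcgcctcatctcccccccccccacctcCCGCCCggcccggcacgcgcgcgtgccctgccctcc
Adcy5: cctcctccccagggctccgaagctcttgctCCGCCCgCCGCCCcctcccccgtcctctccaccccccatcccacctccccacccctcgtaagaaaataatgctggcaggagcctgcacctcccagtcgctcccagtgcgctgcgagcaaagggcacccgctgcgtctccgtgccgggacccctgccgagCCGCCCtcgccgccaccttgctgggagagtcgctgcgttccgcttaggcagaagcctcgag
Pde4b: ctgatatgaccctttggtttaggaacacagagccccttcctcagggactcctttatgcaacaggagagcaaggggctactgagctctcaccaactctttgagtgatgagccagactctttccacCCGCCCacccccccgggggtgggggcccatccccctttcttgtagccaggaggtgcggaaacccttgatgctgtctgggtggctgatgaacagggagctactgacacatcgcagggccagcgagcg

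5 motifs were searched on both strands in the 250 bases before the first start listed for each gene, and 50 of the 65 genes had such a window. The full cyclic AMP response element, TGACGTCA, to which CREB binds, was present in 1 of the 50 windows, that of Gnao1 (2%), and in 1.7% of all 27457 windows of the table. Its core, TGACG, which lies inside the full element, was in 20% of these genes' windows and 19% of all. The GC box GGGCGG was in 54% and 32.4%, CCAAT in 26% and 34.3%, and TATAAA in 14% and 13.1%. The Adcy4 and Gucy2f windows held none of these letters, which says only that the letters are not in those windows.

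In lungs that had not been bled (5 sham and 3 control arrays), 35 of the 65 genes lay above the typical gene. Their median log2 ratio was 0.13, against -0.04 over all 6223 measured features. The highest lung-to-pool ratio belonged to Adcy4, a transmembrane adenylyl cyclase that beta-gamma subunits stimulate, at 1.16 ± 0.24 (SD, n = 8). Pde4d, a phosphodiesterase specific for cyclic AMP, followed at 0.92 ± 0.36, and Adcy5, a cyclase inhibited by calcium and by inhibitory G proteins, at 0.74 ± 0.26. These 3 neighbours overlap within their spread. At the other end were Pde3b, a phosphodiesterase known from fat and liver, at -1.65 ± 1.18, the bicarbonate-sensitive cyclase Adcy10 at -1.43 ± 1.91 (n = 7), and Gucy2c, the intestinal receptor for guanylin, at -1.37 ± 0.76. Adcy10 had single arrays between -5.09 and 0.94, so its place is poorly set.

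Within each kind of protein the ratios spread widely. Among alpha subunits the range ran from Gnat3, the taste-cell subunit, at 0.70 ± 0.73 to Gnai1, an inhibitory subunit, at -0.73 ± 0.78. The beta subunits all lay above 0, from Gnb3 at 0.73 ± 0.19 to Gnb1 at 0.13 ± 0.39. Gng8 (0.56 ± 0.54) and Gng7 (-0.06 ± 0.36) marked the ends of the gamma subunits. Among RGS proteins Rgs5, a marker of pericytes, stood at 0.60 ± 0.32 and Rgs4 at -0.9989 ± 0.71. Gucy2f, known as a photoreceptor guanylyl cyclase, had the highest ratio among guanylyl cyclases, 0.58 ± 0.39. A gene known from the retina and one known from the tongue thus had ratios above the typical gene here. Such ratios do not show how much of either RNA the lung held.

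**Figure D1:**
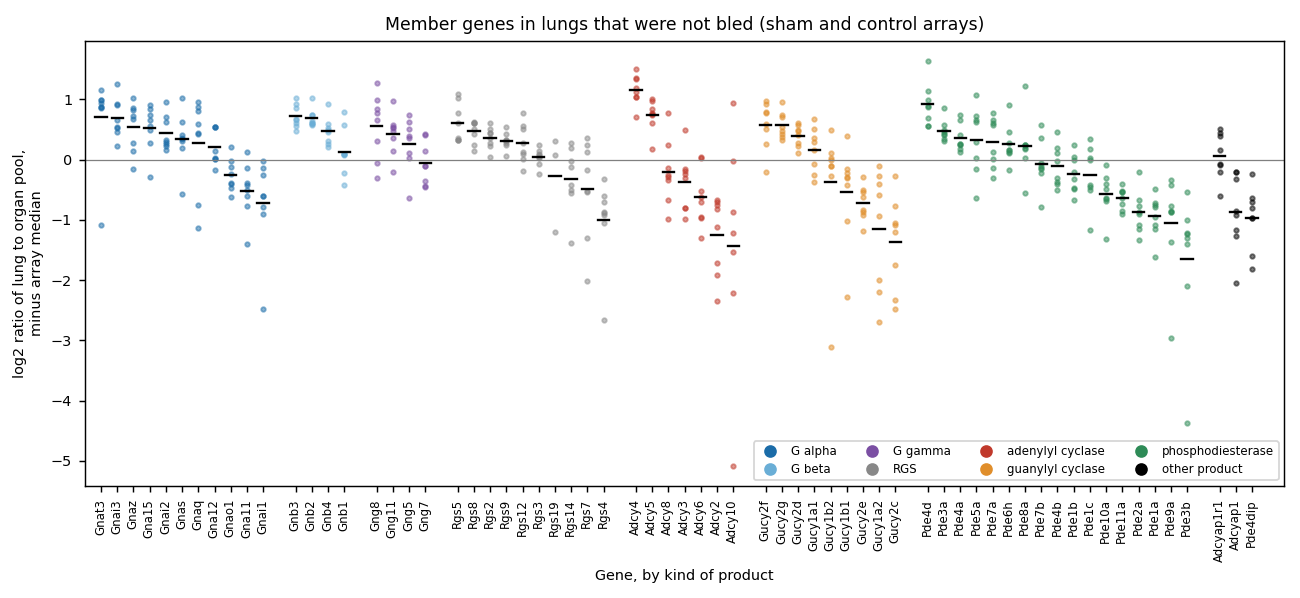
Log2 ratio of lung to organ pool, less the array median, for the 65 genes on the arrays of lungs that were not bled. Each point is a sham or control array, bars are means over both groups, and genes are grouped by product; Adcy4 has the highest mean (1.16) and Pde3b the lowest (-1.65).

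The main question was how these genes differed in bled lungs from sham lungs at each time. Few did: of the 64 genes tested (Rgs19 had values on 19 of 30 arrays and was not tested), limma called 0 at 1 h, 1 at 3 h, 0 at 6 h, 0 at 16 h, 1 at 24 h, 1 at 48 h and 3 at 72 h, all of them lower after hemorrhage. A call means an adjusted p under 0.05 over all 5993 features tested. The same rule called 0%, 2.8%, 0%, 0.0667%, 3.55%, 1.17% and 5.91% of all features at those times, so the genes' shares of 0 to 4.69% were near or below the background. Counting features that were lower only, the background was 0.0501% at 16 h, 2.7% at 24 h, 0.868% at 48 h and 3.87% at 72 h, where another 2.04% were higher. At an unadjusted p under 0.05 limma counted 4, 13, 18, 14, 12, 15 and 18 of the 64 genes. As shares these were 6.25%, 20.3%, 28.1%, 21.9%, 18.75%, 23.4% and 28.1%, against 10.8%, 22.4%, 18.7%, 14%, 19.9%, 16.2% and 22.4% of all features. By this looser count the genes' share was above the background at 6, 16, 48 and 72 h and below it at 1, 3 and 24 h. The difference between these shares was not tested. The median of the genes' differences stayed between -0.05 and 0.05 at all 7 times. All 7 comparisons share the sham arrays.

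**Figure D2:**
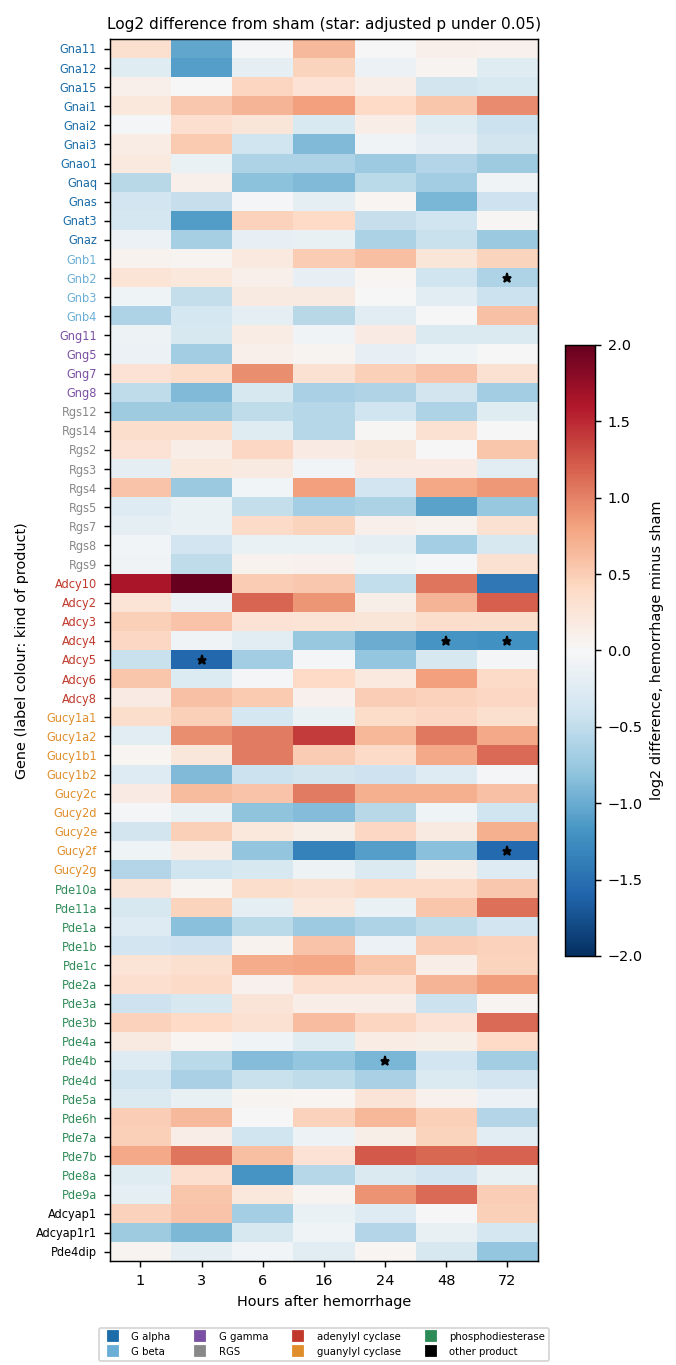
Log2 difference of each time after hemorrhage from sham for the 64 tested genes, blue lower and red higher, label colours giving the kind of product. Stars mark the 6 differences with an adjusted p under 0.05, all in the cyclases, Gnb2 and Pde4b. Colour saturates at 2, which Adcy10 passes at 3 h (2.14, not called).

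Adcy5 was the early case. At 3 h its log2 ratio was -1.27, -0.33 and -1.16 in the 3 bled lungs, against 0.61, 0.73, 0.18, 0.78 and 0.97 in the 5 sham lungs. All 3 bled lungs lay below every sham lung. The difference was -1.58 ± 0.31 (SE; limma adjusted p = 0.0120), which is 33.5% of the sham level, and both spots of the gene showed it (-1.63 and -1.52). In bulk tissue, fewer cells of a type and less RNA per cell cannot be told apart. At later times Adcy5 averaged -0.03 at 6 h (difference from sham -0.69, limma adjusted p = 0.187), 0.64 at 16 h, -0.11 at 24 h, 0.34 at 48 h and 0.63 at 72 h. Leaving out any 1 array of the 2 groups kept the call in 8 of 8 cases, while with all 32 arrays the difference was -1.47 and the adjusted p 0.0698.

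Arrays at 3 h also differed in blood cell genes: the neutrophil receptor Cxcr2 was higher than in sham (1.71, limma adjusted p = 0.0484) and the erythroid factor Gata1 lower (-1.83, limma adjusted p = 0.0120). Over the 3 erythroid genes the median difference was -0.77, with Rhag at 0.68. The median level of 5 neutrophil genes was 1.26 to 1.81 at 3 h and 0.04 to 1.05 in sham. Their part in the Adcy5 result was not tested.

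Adcy4 showed the clearest time course. Its mean was 1.07 ± 0.24 in sham lungs (n = 5), and then 1.475 ± 0.29 at 1 h, 0.99 ± 0.50 at 3 h, 0.85 ± 0.52 at 6 h, 0.31 ± 0.32 at 16 h (n = 2), 0.07 ± 0.33 at 24 h, -0.11 ± 0.29 at 48 h and -0.15 ± 0.69 at 72 h. By array it was 0.22, -0.32 and -0.24 at 48 h and -0.94, 0.22 and 0.28 at 72 h, against 1.35, 1.04, 1.04, 1.19 and 0.71 in sham lungs. Every lung at 48 and 72 h was below every sham lung. The gene that stood highest against the organ pool in resting lung had thus come down to the typical gene.

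The difference from sham was -1.18 ± 0.30 at 48 h (limma adjusted p = 0.0486) and -1.21 ± 0.30 at 72 h (limma adjusted p = 0.0204), 44.3% and 43.2% of the sham level. At 24 h it was -0.996 ± 0.298 and missed the threshold (limma adjusted p = 0.0593). The call at 48 h was lost whichever array was left out, with differences of -1.34 to -1.07, and also with all 32 arrays (adjusted p = 0.0632). That at 72 h held in 6 of 8 omissions and was lost without 72 h replicate 1, the lowest array, which left a difference of -0.82 (adjusted p = 0.104), and without 72 h replicate 3 (-1.42, adjusted p = 0.0501).

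Gucy2f and Gnb2 were the others called at 72 h. Gucy2f read -0.60, -1.34 and -0.87 at 72 h, against 0.59, 0.78, 0.93, 0.52 and 0.25 in sham lungs. The groups did not overlap, and the difference was -1.55 ± 0.35 (limma adjusted p = 0.0133; 0.0204 with all 32 arrays). It was no longer called without 72 h replicate 2 (adjusted p = 0.1002) or without 72 h replicate 3 (0.0669), and kept the call in 6 of 8 omissions.

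Gnb2, a widely expressed beta subunit, read 0.21, 0.17 and -0.02 at 72 h, against 1.03, 0.65, 0.75, 0.62 and 0.61 in sham lungs. The difference was -0.61 ± 0.18 (limma adjusted p = 0.0488), with no overlap between the groups. Its 2 sequence records gave -0.80 and -0.42 at 72 h, neither called alone (limma adjusted p = 0.0540 and 0.294), and over the 7 times their differences from sham had opposite signs (-0.33 and 0.18), neither of them called. Each of the 8 omissions ended this call, at adjusted p-values of 0.0573 to 0.239, as did all 32 arrays (0.104).

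Pde4b, a cyclic AMP phosphodiesterase found in leukocytes and a target of rolipram, was the gene called at 24 h. It read -1.14, -1.01 and -1.54 there, against -0.37, -0.31, -0.51, -0.01 and -0.41 in sham lungs, with no overlap. The difference was -0.91 ± 0.25 (limma adjusted p = 0.0407; 0.0762 with all 32 arrays), and 2 of 8 omissions kept the call. At 6 h the difference was nearly as large, -0.87 ± 0.21, without passing (limma adjusted p = 0.0624).

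A joint test asked whether a gene differed from sham at any of the 7 times. At an unadjusted p under 0.05 limma counted 20 of the 64 genes (31.25%), against 31% of all features. It called 6 of the 64 (9.38%), against 5.69% of all features. They were Adcy4 (adjusted p = 0.0125), Gucy2f (0.0252), Adcy5 (0.0364), Pde8a (0.0392), Gnb2 (0.0457) and Gnb4 (0.0457). Adcy4 remained called in 27 of 27 omissions of 1 array and Gucy2f in 25, while Gnb4 did so in 11 and Gnb2 in 9. With all 32 arrays only Adcy4 passed (limma adjusted p = 0.0123).

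Pde8a, a high-affinity cyclic AMP phosphodiesterase, owed its place to 6 h. It read -0.90, -0.46, -0.97, -1.11 and -0.37 at 6 h, against 0.18, 0.24, 1.22, 0.19 and 0.25 in sham lungs. All 5 lungs at 6 h were below all 5 sham lungs, yet the difference of -1.18 ± 0.26 missed the threshold in a comparison in which no feature passed (limma adjusted p = 0.0599). Gng7, a gamma subunit, lay the other way at 6 h, all 5 lungs above all 5 sham lungs (0.92 ± 0.22, limma adjusted p = 0.0624).

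Other genes had small p-values without passing. At 1 h the nearest were Gnb4 (-0.62), Rgs12 (-0.71), Adcyap1r1 (-0.71) and Gucy2g (-0.59), none with a limma adjusted p under 0.377. At 3 h they were Pde1a (-0.83, adjusted p = 0.0502), Adcyap1r1 (-0.89, adjusted p = 0.0825) and the alpha subunit Gna12 (-1.11, adjusted p = 0.0538, but a difference of -0.49 without 3 h replicate 2). Pde1c stood at 0.74 at 6 h, and Pde2a, which cyclic GMP stimulates, at 0.83 at 72 h (limma adjusted p = 0.0585). At 16 h, with 2 arrays, Gucy2f stood at -1.35 (limma adjusted p = 0.160), Pde1a at -0.73 and Pde4b at -0.77. Pde4b passed with all 32 arrays (-1.10, limma adjusted p = 0.0437), which restore the sham and 16 h arrays with liver signal. Calls over all features at 16 h then rose from 4 to 99. In the joint test the nearest alpha, RGS and gamma genes were Gnao1 (limma adjusted p = 0.0555), Rgs4 (0.0662) and Gng7 (0.1345).

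**Figure D3:**
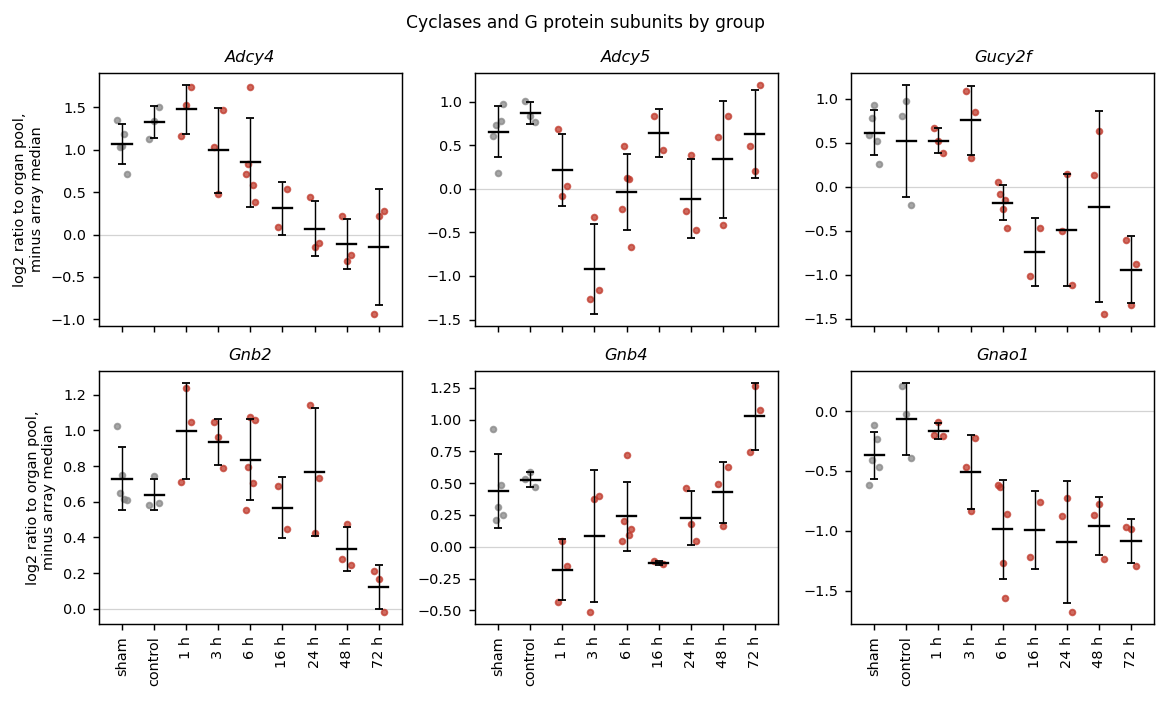
Log2 ratio to the organ pool, less the array median, by group for Adcy4, Adcy5, Gucy2f, Gnb2, Gnb4 and Gnao1. Points are arrays (red bled, grey not bled) and black bars the mean and SD; Adcy4 averages 0.85 or more through 6 h and between -0.15 and 0.07 at 24 to 72 h, while Adcy5 is lowest at 3 h (-0.92).

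Late times (24, 48 and 72 h, 9 arrays) were then set against early ones (1, 3 and 6 h, 11 arrays), all of them bled. Sham lungs were not matched to each time, so a changed response to hemorrhage and other changes with time cannot be told apart. Here 6 of 64 genes were called, 4 lower and 2 higher late (9.38%), against 7.04% of all features, 4.37% lower and 2.67% higher. The 4 lower genes were Adcy4, Gucy2f, Gnb2 and Gnao1, and the 2 higher were Gnb4, another beta subunit, and Pde1b, a phosphodiesterase that calcium and calmodulin stimulate. Gnb2 and Gnb4 thus moved in opposite directions, and the other beta subunits, Gnb1 (0.32) and Gnb3 (-0.08), were not called.

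Adcy4 had the smallest p: its late lungs ran from -0.94 over a median near -0.10 to 0.45, and its early lungs from 0.39 over 1.03 to 1.74. Of the 9 late lungs, 8 lay below the lowest early lung. The difference was -1.17 ± 0.19 (limma adjusted p = 0.0012), or 44.5% of the early level, and the 2 spots gave -1.07 and -1.26. Gucy2f differed by -0.92 ± 0.22 (limma adjusted p = 0.0147), with 6 of 9 late lungs below every early one. Gnb2 differed by -0.52 ± 0.11 (limma adjusted p = 0.0099), with 7 of 9 below, and all 4 of its spots, from 2 sequence records, fell between -0.57 and -0.47. These 3 calls held in 20 of 20 omissions. They also held with all 32 arrays, but the 2 restored arrays are of sham and 16 h. The differences are then the same, and only the estimated spread and the adjustment change.

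The smaller shifts were less firm. Gnao1, the alpha subunit abundant in neurons, differed by -0.49 ± 0.15 (limma adjusted p = 0.0479) and kept the call in 6 of 20 omissions. Its means in the time course were -0.37 in sham, -0.17 at 1 h and -0.51 at 3 h, and from 6 h on between -0.96 and -1.09. Gnb4 differed by 0.51 ± 0.14 (limma adjusted p = 0.0276), and 3 of 9 late lungs, those of 72 h at 0.74, 1.26 and 1.07, lay above every early lung. Pde1b differed by 0.53 ± 0.15 (limma adjusted p = 0.0311). With all 32 arrays the adjusted p-values were 0.0636 for Gnao1, 0.0613 for Gnb4 and 0.224 for Pde1b.

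Markers of several cell types moved over the same times. The surfactant genes and other type II cell markers had a late-minus-early difference below 0 in 5 of 5 measured genes (median -0.63; Sftpa1 -0.83, limma adjusted p = 0.0383), and their median level was 0.90 to 1.295 at 72 h, against 2.22 to 3.26 in sham. The club cell gene Scgb1a1 was lower late (-1.38, limma adjusted p = 0.0167). Of 7 endothelial markers 3 were measured, with a median late-minus-early difference of -0.04. Their median difference from sham was -0.62 at 24 h, -0.71 at 48 h and -0.27 at 72 h, and 1 of 3 was above 0 at each of the 7 times. Plvap was lower at 24 h (-1.21, limma adjusted p = 0.0391) and Kdr higher at 72 h (0.86, limma adjusted p = 0.0385). Mmp8, a neutrophil collagenase, was 4.37 higher at 72 h than in sham (limma adjusted p = 0.0016), but the median over the 5 neutrophil genes was 0.07 at that time, with 3 of 5 above 0. Nerve and glial genes, which bear on Gnao1, had a median late-minus-early difference of -0.42 over 4 genes (Mbp -0.61, limma adjusted p = 0.0184), and their level was -1.21 to -0.80 at 72 h, against -0.81 to -0.48 in sham. The part of these cell types in the results was not tested.

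Averaged over the 7 times, bled lungs differed from sham lungs in 1 of 64 genes (1.56%), against 3.42% of all features, 2.02% lower and 1.4% higher. At an unadjusted p under 0.05 limma counted 19 of the 64 (29.7%), against 23% of all features. The called gene was Pde4b, at -0.63 ± 0.17 (limma adjusted p = 0.0385), or 64.6% of the sham level. Of 22 bled lungs 20 lay below the lowest sham lung, and 20 of 27 omissions kept the call. The 2 spots gave -0.53 and -0.73. All 32 arrays, with the 2 arrays of liver signal restored, gave -0.65 (limma adjusted p = 0.0373). Just past the threshold came Pde1a (-0.55 ± 0.16, adjusted p = 0.0503, and 0.0196 with all 32 arrays), Pde7b (0.90 ± 0.26, adjusted p = 0.0540) and Gucy2f (-0.80 ± 0.24, adjusted p = 0.0620).

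Pde7b, another phosphodiesterase specific for cyclic AMP, ran opposite to Pde4b. Its means were -0.19 ± 0.41 in sham lungs, and at the 7 times they lay between 0.10 (16 h) and 1.05 (24 h). The arrays of a group were far apart, for example 1.11, 0.14 and 1.89 at 24 h, where the difference from sham was 1.23 (limma adjusted p = 0.0710). It passed in 5 of 27 omissions, and with all 32 arrays (0.94, limma adjusted p = 0.0412), which restore the 2 with liver signal.

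**Figure D4:**
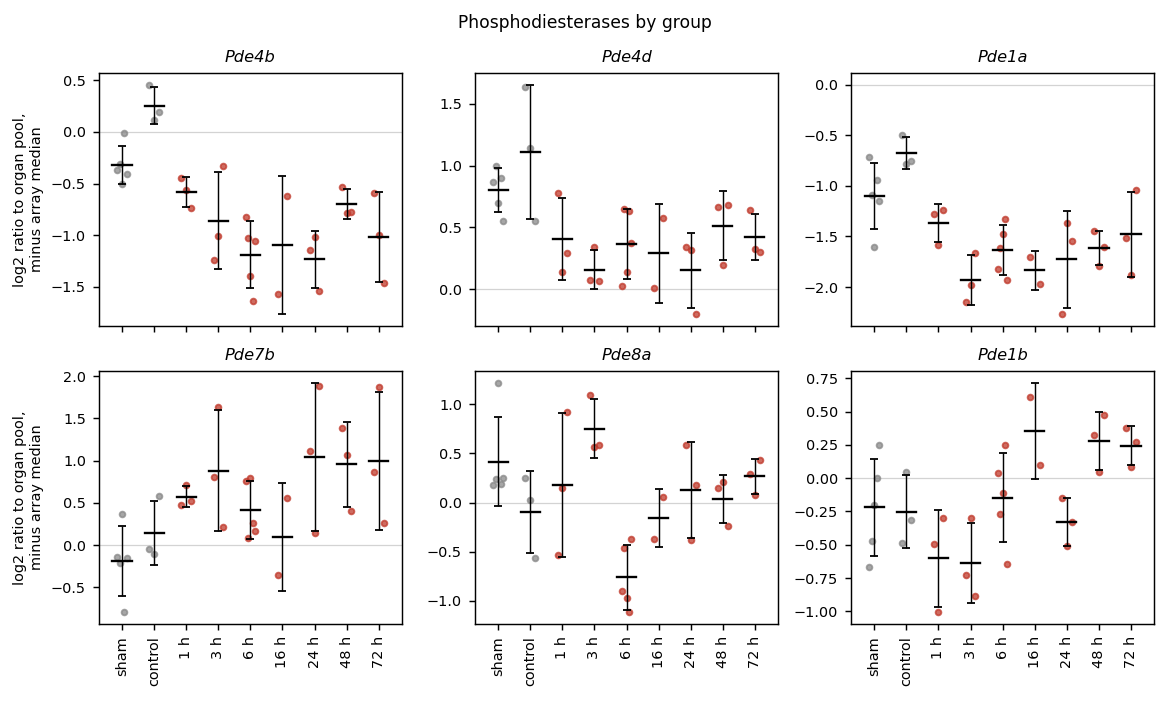
Log2 ratio to the organ pool, less the array median, by group for 6 phosphodiesterases; points are arrays (red bled, grey not bled), bars the mean and SD. Pde4b and Pde1a lie lower in bled lungs, Pde7b higher with wide spread, and Pde8a is low at 6 h.

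Against the uninstrumented controls the picture was broader. The mean of the 7 times differed from control in 11 of 64 genes (17.2%), against 8.01% of all features. Lower in bled lungs were 8 genes (3.89% of all features were lower): Pde4b (-1.21 ± 0.21, limma adjusted p = 0.0051), Gng8 (-1.05), Pde1a (-0.98), Adcyap1r1 (-0.90), Adcy4 (-0.83), Rgs12 (-0.82), Pde4d (-0.78) and Gnao1 (-0.76). Higher were 3 genes (4.12% of all features were higher): Gnai1 (1.22 ± 0.29, limma adjusted p = 0.0177), Pde1c (0.73) and Gnb1 (0.65). Pde4b, Pde4d and Pde1a are known to degrade cyclic AMP, as is Pde1c, which was higher.

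By array, Pde4b ran from -1.64 to -0.33 in the 22 bled lungs, against 0.46, 0.11 and 0.19 in control lungs, so every bled lung lay below every control. Pde1a behaved likewise: bled lungs ran from -2.27 to -1.05, control lungs read -0.49, -0.78 and -0.75, and the difference had a limma adjusted p of 0.0081. Adcyap1r1 was below every control in all 22 bled lungs too. Gnai1 read -2.48, -0.26 and -0.61 in control lungs, so its difference leans on the first of these: without control replicate 1 it was 0.53 (limma adjusted p = 0.392).

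This comparison rests on 3 control arrays and above all on that one. Without control replicate 1 limma called 0 of the genes and 3 of 5969 features in all, without control replicate 2 it called 3 of the genes and 190 of 5821 features, and without control replicate 3 it called 14 and 632 of 5815. Control replicate 1 had the fewest spots with a value (12151) and a median correlation of 0.387 with the other arrays. The sizes for Pde4b and Pde1a moved little (-1.28 to -1.11 and -1.03 to -0.89 over all omissions), while Gnai1 and Pde1c (0.35 to 1.11) moved most. Pde1c also has 2 sequence records on the array that disagree, at 1.31 and 0.15.

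Sham and control lungs themselves differed in 0 of 64 genes and in 0% of all features by limma. Under an unadjusted p of 0.05 limma counted 3 of the genes (4.69%), against 4.71% of all features. These were Pde4dip (0.79 ± 0.26), Gucy1b2 (1.11 ± 0.48, but 0.085 without control replicate 1) and Pde4b (-0.58 ± 0.25, limma adjusted p = 0.999). All 5 sham lungs were below all 3 control lungs in Pde4b, so sham lungs stood between bled and control lungs for this gene. Each comparison with control shares its bled arrays with that against sham.

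**Figure D5:**
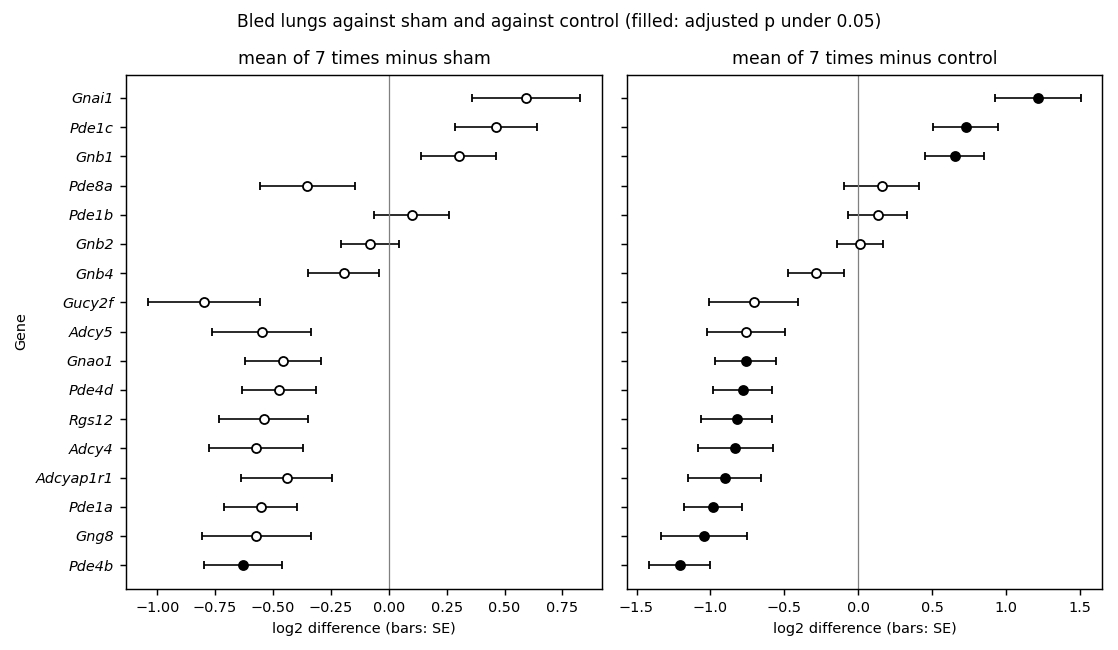
Log2 difference of bled lungs (mean of 7 times) from sham, left, and from control, right, for the 17 genes called in any comparison; bars are SE and filled points have an adjusted p under 0.05. Most genes have the same sign in both panels, with 1 filled point against sham and 11 against control; the bled arrays are the same in both.

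By kind of protein, 17 of 64 genes (26.6%) were called in at least 1 of the 12 comparisons, against 20.4% of all features, and 47 in none. The called genes were Gnai1 and Gnao1 of 11 alpha subunits, Gnb1, Gnb2 and Gnb4 of 4 beta subunits, Gng8 of 4 gamma subunits, Rgs12 of 9 tested RGS proteins, Adcy4 and Adcy5 of 7 adenylyl cyclases, Gucy2f of 9 guanylyl cyclases, Pde1a, Pde1b, Pde1c, Pde4b, Pde4d and Pde8a of 17 phosphodiesterases, and Adcyap1r1. The stimulatory subunit Gnas, the Gq subunit Gnaq and the nitric oxide-sensitive Gucy1a1 and Gucy1b1 were among the 47. For Gnas at 48 h the difference was -0.91 (limma adjusted p = 0.181), and for Gucy1a2, the alpha 2 subunit of the nitric oxide receptor, 1.39 at 16 h with sham arrays between -2.69 and -0.11 (limma adjusted p = 0.243). Against sham at a single time, Rgs5 came closest among RGS proteins, at -1.07 ± 0.27 at 48 h (limma adjusted p = 0.0513). Gnai2 has 2 sequence records that disagree at 72 h, at -0.96 and 0.11.

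Other genes of the pathway were counted from lists that do not overlap the 65. Of 16 measured cyclic AMP effectors, Akap5, an anchor for protein kinase A that is also enriched in type I cells, was lower at 3 h (-1.11, limma adjusted p = 0.0135), at 72 h (-0.98) and over the 7 times (-0.61), and the coactivator Crebbp was lower late (-0.53, limma adjusted p = 0.0319). The list's median difference lay between -0.21 and 0.16 at the 7 times. Of 10 receptor kinases and arrestins, Arrb1 was lower at 3 h (-1.26, limma adjusted p = 0.0120) and Grk4 higher at 72 h (1.15, limma adjusted p = 0.0143). Of 26 receptors that couple to the stimulatory G protein, Htr7 was the only one called against sham at a single time (1.51 at 72 h, limma adjusted p = 0.0440), Adrb1 passed the joint test alone (limma adjusted p = 0.0484), and Drd5 was higher (1.02) and Avpr2 lower (-0.49) late.

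Of 18 genes of nitric oxide, natriuretic peptide and cyclic GMP signalling, the channel gene Cnga2 was higher at 48 h (1.52, limma adjusted p = 0.0421) and the peptide Nppc at 72 h (1.51, limma adjusted p = 0.0382). The channel genes Hcn2 (1.46) and Hcn3 (1.47) were higher in bled than in control lungs. For the mean of the 7 times against sham, 0 of the 18 were called. Without control replicate 1, the comparison with control called 3 of 5969 features. In the phospholipase C arm (11 genes) the calcium channel Itpr2 was lower at 3 h (-1.37, limma adjusted p = 0.0199) and the kinase Prkcb at 24 h (-0.98, limma adjusted p = 0.0097). Of 5 other regulators of G proteins, Pdcl, a chaperone of beta-gamma assembly, was higher at 72 h (1.13, limma adjusted p = 0.0313).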

How the data were processed

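The values are log2 ratios of lung to organ pool per spot, as the authors deposited them, multiples of 0.01 on the linear scale with a lowest ratio of 0.01. How the authors normalized them, and which dye and scanner they used, is not stated in the labels read. The direction was taken as lung over pool because surfactant genes were high and liver genes low. Each array was centred on its median (-0.38 to 0.06 as deposited), and spots were averaged per symbol of the platform annotation (otherwise per sequence record or neighbouring pair), giving 6223 features. All 65 symbols matched RefSeq. Groups came from the titles.

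A linear model with moderated variances (limma 3.58.1, R 4.3.3) was fitted to 30 arrays in 9 groups and to the 5993 features that each group measured on 2 or more arrays. Tests were two-sided, adjusted by Benjamini-Hochberg within a comparison, and checked on simulated data. The number of arrays limits the precision.

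Named genes were up to 8 called genes a direction in each comparison (if under 4 were called, the 4 lowest p-values), the extremes of each kind of product, and up to 4 called genes a pathway list. The remaining names were chosen after values were seen. The genes and lists were chosen with earlier results of these data known. Alternatives were all 32 arrays, no centring, quantile normalization, 1 value per record, no filter, ratios up to 0.05 set to missing, the replicate number as a block, and leaving out each array.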

Additional observations from a re-analysis of the deposited data

Results flagged for a closer look

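In 3 of 56 groups of 4 to 10 arrays tested, 1 array stood apart from the others, where chance gives about 1 in 20. Gnb4 read 0.72 on 6 h replicate 3, against 0.04 to 0.21 on the other 4 arrays of 6 h. Gng11, a gamma subunit, read 0.98 on sham replicate 1, where the 4 remaining sham lungs gave 0.47 to 0.57. In sham replicate 4 Pde8a stood at 1.22, while the 4 remaining sham lungs gave 0.18 to 0.25. Without sham replicate 4 the difference of Pde8a at 6 h from sham was -0.98.

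For 6 genes bled lungs differed between late and early times by the limma contrast of late minus early times: Adcy4 (-1.17), Gucy2f (-0.92), Gnb2 (-0.52), Gnao1 (-0.49), Gnb4 (0.51) and Pde1b (0.53).

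The 2 arrays that were left out carried a signal that the others lacked. Taking 10 liver genes together, their median came to 3.40 in sham replicate 2 and to 3.23 in 16 h replicate 3, while no other array exceeded 0.36 or fell under -1.43.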

How the results depend on the processing

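Counts of called genes moved by over 1.5 times under these settings. With all 32 arrays they were 0 at 3 h, 1 at 16 h, 0 at 24 h, 0 at 48 h, 1 in the joint test, 3 for bled against sham, 6 for bled against control and 3 for late against early times. Without centring they were 3 at 3 h, 5 at 24 h, 2 at 48 h and 4 for bled against sham, while the median of all features at 24 h was -0.15, against 0.04 with centring. Quantile normalization gave 0 at 24 h, 2 at 48 h, 8 at 72 h and 5 for bled against sham. The calls over all features moved too: with quantile normalization to 190 (213 as reported), 177 (70), 497 (354) and 272 (205) at these 4, and with all 32 arrays to 28 (168) at 3 h, 99 (4) at 16 h, 113 (213) at 24 h, 5 (70) at 48 h, 136 (341) in the joint test, 231 (205) for bled against sham, 213 (480) for bled against control and 196 (422) for late against early times. Without centring they were 200 at 3 h, 419 at 24 h, 74 at 48 h and 271 for bled against sham. Setting low ratios to missing called 2 of the genes at 3 h, 2 at 48 h and 3 for bled against sham. Over all features it called 186, 91 and 250 there. With no filter 0 of the genes and 64 of all features were called at 48 h. With the replicate block 0 of the genes were called at 24 h, 0 at 48 h and 2 in the joint test. The block called 0 for bled against sham and 7 for bled against control. Over all features it gave 161, 3, 71, 107 and 286, in that order. Arrays with the same number did not deviate together in the median (correlation -0.0049 over 94 pairs, -0.42 to 0.35). Pairs with different numbers gave a median of 0.012 over 302 pairs, -0.39 to 0.43. No pairing by number showed here, but a median cannot exclude it for some arrays. Leaving out 1 array gave 0 to 0 calls at 1 h, 1 to 6 at 3 h, 0 to 3 at 6 h, 0 to 0 at 16 h, 0 to 3 at 24 h, 0 to 0 at 48 h, 0 to 3 at 72 h, 1 to 10 in the joint test, 0 to 4 for bled against sham, 0 to 14 for bled against control, 3 to 9 for late against early times and 0 to 0 for sham against control. The calls over all features moved with these omissions too. At 3 h they fell to 39 without sham replicate 6 (168 as reported) and rose in some other omissions. At 72 h they fell to 33 without 72 h replicate 3 (354 as reported) and rose in some other omissions. At 6 h they rose to 112 without 6 h replicate 1 (0 as reported). The ranges for these genes thus include shifts across the whole array. The cause of these shifts was not tested. Over 59 results on named genes, 1084 repeats kept direction and side of the threshold, 209 lost the call, 45 gained one and 0 turned direction.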
